A study of Rattus norvegicus with 7 samples.

Results

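The glutathione, thioredoxin and peroxidase enzyme families remove superoxide and peroxides and keep protein thiols reduced, and they were followed here in rat testis after cadmium. Members were the probe sets of the array whose single gene symbol begins with Gst, Gpx, Prdx, Txn, Glrx or Sod followed by a letter or digit, or is Gsr, Gss, Cat or Txn, without Txnrd1 and Txnip. This rule found 62 probe sets for 56 genes among 31042 probe sets, 20826 of which name 1 gene. A further 2 probe sets that name a pair of family genes each were left out, and Prdx1 therefore has no value here.

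Superoxide dismutases turn superoxide into hydrogen peroxide, which catalase, the glutathione peroxidases and the peroxiredoxins break down. Glutathione peroxidases draw electrons from glutathione and peroxiredoxins mostly from thioredoxin, while glutathione transferases couple glutathione to reactive compounds. Cadmium binds thiols, glutathione among them. In the testis several members are abundant in spermatids, where Gpx4 becomes a structural protein of the sperm midpiece and Txnrd3, a thioredoxin and glutathione reductase, acts in sperm maturation.

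Expression was measured in whole testes of adult male Sprague-Dawley rats, an outbred stock. Controls were untreated (n = 3), and treated rats received cadmium chloride once into the peritoneal cavity at 3 mg/kg body weight and were killed after 8 h (n = 2) or 20 h (n = 2). The controls are labelled untreated, so the injection itself is not controlled for. Each array, read as 1 animal, gave a signal per probe set on a linear scale. Fold changes are differences of log2(signal + 15), given ± SE, and a probe set was tested where 2 or more arrays had it above their own 40th percentile. In a whole organ fewer cells of a type and less RNA per cell cannot be told apart, and probe sets of near-identical relatives, common among the transferases, may share signal.

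Hybridization took place on 3 days. Day 1 held untreated replicate 1 with 20 h replicate 1, day 2 held untreated replicate 2 alone, and day 3 held the remaining 4 arrays, among them the 8 h pair and 1 array of each other group. Over all 20857 probe sets tested, 0 passed an adjusted p of 0.05 in any comparison (limma with Benjamini-Hochberg adjustment). Marker lists showed where arrays of 1 group differed. The 6 Leydig cell markers had a summed signal of 5871 to 8145 in untreated testis, 10984 and 7090 at 8 h, and 2469 and 7261 at 20 h (replicates 1 and 2 in turn). On 20 h replicate 1 Insl3 of this list stayed within its untreated range, at 1185.6 against 1126.7 to 1827.8. The other Leydig markers lay below theirs on that array. The 6 endothelial markers found of 7 summed to 478 to 546, then 210.1 and 464.0, then 128.6 and 485.5. Cldn5, at 231.9 to 241.4 in untreated testis, made the largest part of this sum. It had 62.7 and 236.1 at 8 h and 52.5 and 252.9 at 20 h. Of the dimmer ones, Kdr was below its untreated range on all 4 cadmium arrays, Emcn on both 8 h arrays and Tek on both 20 h arrays. Emcn at 20 h, Tek at 8 h and Tie1 at both times overlapped the untreated arrays. The 7 spermatid markers found of 8 summed to 73597 to 113511, then 110376 and 107964, then 78776 and 113321. For the spermatid list the high arrays were the 4 of day 3. Of its markers only Acrv1 did not follow this. It was lowest on untreated replicate 3 of day 3 (2279.2) and highest on untreated replicate 2 (2613.1). The 5 macrophage markers summed to 1097 to 1152 in untreated testis and to between 1129 and 1292 on the cadmium arrays. Mrc1, at 817.7 to 931.4, made most of this sum, and dimmer markers moved apart. Cd163 had 37.4 to 52.3 in untreated testis and 77.2 to 137.3 on the cadmium arrays. Csf1r had 122.9 to 128.9, then 70.8 to 110. Cd68 and Cd14 overlapped between the groups. Of the epididymis markers only Adam7 had a probe set, with a signal of 23.5 or less on every array.

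Of the 62 member probe sets, 55 passed the filter on low signal, for 51 genes. The 7 left out were those of Gpx2, Gsta3, Gsta3l1, Gstm6l and Gstp3 and a pair of dim ones for Txnl1, so Gpx2 and those 4 transferases have no tested value. Just outside the filter, Gpx2 had its second-highest signal at 0.65 times its array's filter value, and just inside it Gsr had 1.07 times. Glutathione reductase, which Gsr encodes, was thus barely measured.

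No member passed the adjusted test in any comparison. At 8 h 0 of 55 member probe sets passed, against a background of 0% of all probe sets, and the lowest adjusted p among members was 0.836 (limma). At an unadjusted p under 0.05 there was 1 of 55 at 8 h, where the background was 5.22%, and 2 of 55 at 20 h, where it was 3.11%. Between 20 h and 8 h there were 0 of 55, with a background of 1.92%, and the F test over the 3 groups had 0 of 55 with 3.02%. The members' shares were 1.82% at 8 h and 3.64% at 20 h, below and near those of the whole array. Once the day entered as a block, 5 of 55 reached an unadjusted p under 0.05 at 8 h (background 6.11%), 6 of 55 at 20 h (5.74%) and 1 of 55 between the times (3.15%), and 0 passed the adjusted test.

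Changes of member genes were small. With 1 probe set per gene, the median log2 fold change was 0.04 at 8 h, with a range of -0.43 to 0.48, and -0.02 at 20 h, with a range of -0.61 to 0.35. The same medians over all probe sets were -0.08 and -0.05. The median size of a change regardless of sign was 0.17 at 8 h and 0.16 at 20 h for members, against 0.20 and 0.17 for all probe sets. At 8 h 38 of 55 member probe sets had a higher mean than untreated testis, where 39% of all probe sets did. The median signal over all probe sets was lower on the 8 h arrays (55.65 and 53.7) than on the untreated ones (71.9, 68.8 and 57.0). Its part in this count was not tested. A block for the hybridization day takes all weight from untreated replicate 2, and 29 of 55 members were then higher, with a background of 46.7%. At 20 h 23 of 55 were higher, where 41.2% of all probe sets were, and 28 of 55 under the day block, where 43.7% were.

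**Figure D1:**
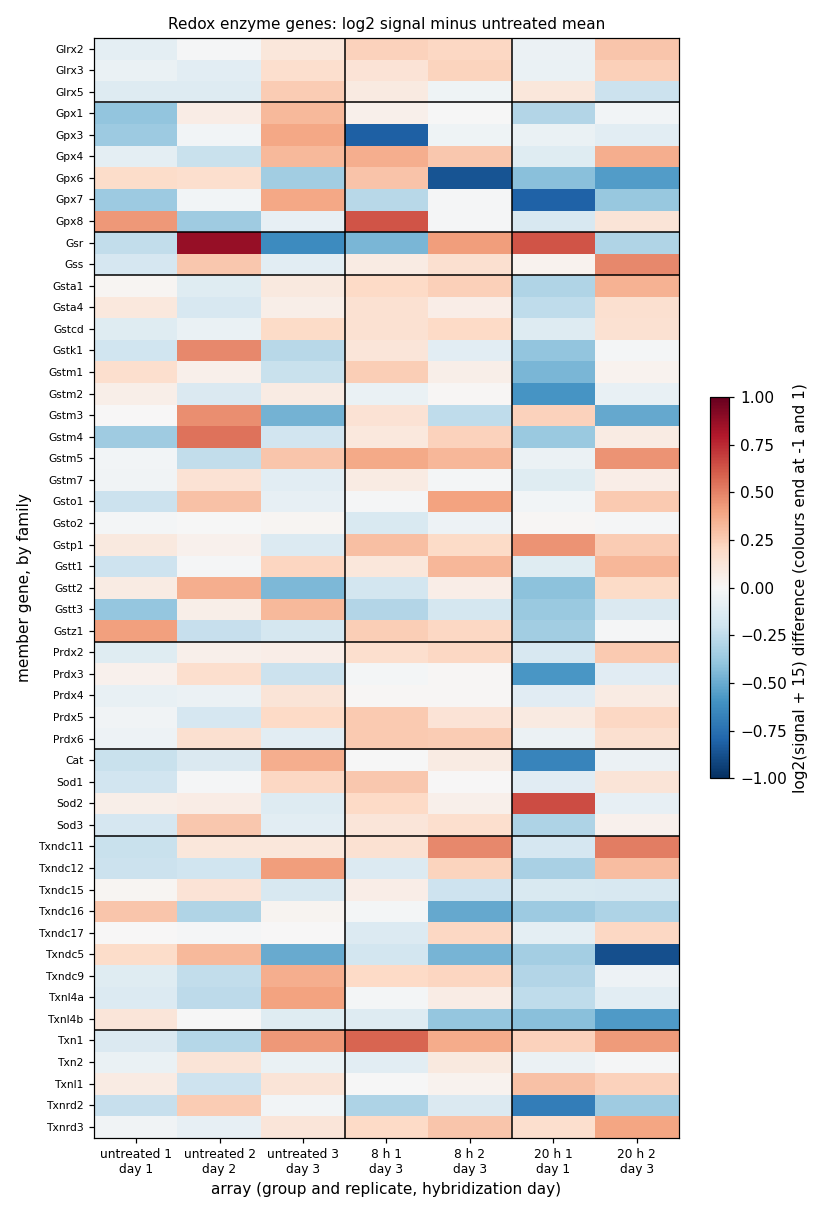
Each row is 1 of the 51 tested member genes (brightest probe set), ordered by family with lines between families, and each column 1 array with its group, replicate and hybridization day. Colour gives log2(signal + 15) minus the mean of the 3 untreated arrays, from -1 (blue) to 1 (red); 20 h replicate 1 holds the lowest signal of the 7 arrays for 18 of the 55 tested probe sets.

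Superoxide dismutases and catalase form the first line of the system, and all 4 genes were tested. Sod1, the cytosolic copper-zinc enzyme, had signals of 3382, 3832 and 4476.1 in untreated replicates 1 to 3, 4677 and 3875.6 at 8 h, and 3578.9 and 4234.7 at 20 h. The groups overlapped, and the 8 h change was 0.14 ± 0.16, which turned to -0.03 under the day block and to -0.04 under quantile normalization. Sod2, the mitochondrial manganese enzyme, had 511.3, 514.6 and 445.4 in untreated testis, 565.2 and 506.9 at 8 h, and 777.8 and 461.4 at 20 h. One 20 h array was thus above all others and its partner within the untreated range, and the change of 0.29 ± 0.21 turned to -0.08 without 20 h replicate 1. Sod3, the extracellular enzyme, had 369.8, 504.1 and 386.3 in untreated testis, 453.9 and 469.0 at 8 h, and 333.9 and 429.4 at 20 h.

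Catalase, the peroxisomal enzyme encoded by Cat, had signals of 211.5, 224.2 and 323.8 in untreated testis, 247.9 and 264.3 at 8 h, and 151.8 and 238.1 at 20 h. Both 20 h arrays lay below both 8 h arrays but overlapped the untreated ones. Its change was 0.04 ± 0.24 at 8 h, which turned to -0.33 under the day block, and -0.36 ± 0.24 at 20 h. Within days it was lower at 20 h on both, by a same-day log2 difference of -0.44 on 20 h replicate 1 and -0.42 on 20 h replicate 2.

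Glutathione peroxidases use glutathione to reduce peroxides, and 6 of 7 genes were tested. Gpx4, which reduces phospholipid peroxides, gave 14316.2, 13117.6 and 19182 in untreated testis, 19688.9 and 18486.9 at 8 h, and 14114.1 and 19684.6 at 20 h. All 4 arrays at 18486.9 or above were those of day 3, treated or not, and the other 3 lay at 14316.2 or below. The 8 h change of 0.32 ± 0.20 turned to -0.02 under the day block and to -0.04 under quantile normalization. A second, dim Gpx4 probe set is described below with the other disagreements. Gpx1, the main cytosolic form, ran from 503.7 to 842.4 in untreated testis and from 543 to 691.3 on the cadmium arrays.

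The remaining peroxidases were dim and scattered. Gpx7, which works in the endoplasmic reticulum, had 43.7, 58.8 and 83.7 in untreated testis, 47.0 and 59.6 at 8 h, and 27.9 and 42.9 at 20 h. Both 20 h arrays were below every other array, with a change of -0.60 ± 0.33 at 20 h and a difference of -0.45 between 20 h and 8 h. Gpx6 had 58.1, 57.3 and 35.5 in untreated testis, 63.3 and 20.4 at 8 h, and 33.2 and 28.6 at 20 h, with a change of -0.49 ± 0.40 at 20 h. Its 8 h arrays lay on both sides of the untreated range. Gpx3, the secreted form, ranged from 36.8 to 104.7, both ends being on day 3, at 8 h replicate 1 and untreated replicate 3. Gpx8, another reticulum protein, ranged from 79.2 to 171.2 with untreated replicate 2 the lowest.

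Peroxiredoxins, thiol peroxidases that cycle through an oxidized cysteine, were tested for 5 genes. Prdx6, which works with glutathione, had 1122.6, 1300.6 and 1078.4 in untreated testis, 1397.9 and 1392.8 at 8 h, and 1118.7 and 1303.4 at 20 h. Both 8 h arrays were above every untreated array, with a change of 0.26 ± 0.14, and 0.30 with the day as a block. At 20 h the groups overlapped, and the change was 0.05 ± 0.14. Prdx3, the mitochondrial form, had 633.8, 694 and 527.4 in untreated testis, 606.2 and 620.9 at 8 h, and 404.8 and 568.4 at 20 h. Only 20 h replicate 1 was outside the untreated range, and the change was -0.35 ± 0.19.

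Prdx2, the other abundant cytosolic form, had 1515.3, 1709.8 and 1724.3 in untreated testis, 1855.1 and 1901 at 8 h, and 1469.4 and 1972.5 at 20 h. Both 8 h arrays were above the untreated ones, by 0.19 ± 0.16. Prdx2 was among the 4 members that differed least between the untreated arrays, with an SD of 0.10 on the log2 scale. The 20 h arrays were its lowest and its highest. Prdx4, the form of the endoplasmic reticulum, stayed between 3704.7 and 4374.1 on all arrays, and Prdx5 between 781.7 and 1055.9.

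Thioredoxins carry electrons from thioredoxin reductase to peroxiredoxins and other proteins. Txn1, the cytosolic thioredoxin, had 1274.7, 1152.4 and 1903.3 in untreated testis, 2122.5 and 1829.6 at 8 h, and 1654.1 and 1898.6 at 20 h. The cadmium arrays were all above untreated replicates 1 and 2, while untreated replicate 3, of day 3, lay among them. Txn1 had the largest 8 h change of the 51 member genes, 0.48 ± 0.21, and was the member counted above at that time (adjusted p = 0.836, limma). With the day as a block the change was 0.14, and over all alternative settings it ran from 0.14 to 0.69. At 20 h it was 0.33 ± 0.21, and 0.18 with the day as a block.

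Txn2, the mitochondrial thioredoxin, did not stand apart in any group, with 603.8 to 713.1 over the 7 arrays. Txnrd2, its reductase, had 59.3, 88.9 and 70.3 in untreated testis, 55.2 and 63.6 at 8 h, and 38.8 and 52.9 at 20 h. Both 20 h arrays were below every other array, at signals near the filter, with a change of -0.53 ± 0.28. Txnl1, a thioredoxin-like protein bound to the proteasome, had 1357, 1105.8 and 1403.9 in untreated testis, 1276.8 and 1316 at 8 h, and 1573.1 and 1508 at 20 h. The 20 h arrays were above all others, with a change of 0.26 ± 0.15 at 20 h and 0.25 between the times. A second Txnl1 probe set, with 636.2, 417.2 and 506.1 in untreated testis, did not show this: it gave 522.1 and 479.6 at 20 h and a change of -0.03.

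Among proteins with a thioredoxin fold, 9 genes were tested. Txnl4b, a splicing-related protein, had 231.4, 211 and 193.9 in untreated testis, 191.7 and 158.0 at 8 h, and 154.7 and 138.4 at 20 h. All 4 cadmium arrays were below the 3 untreated ones, and both 20 h arrays below both 8 h arrays. The change was -0.26 ± 0.19 at 8 h and -0.49 ± 0.19 at 20 h, the latter with the lowest unadjusted p of any member (adjusted p = 0.999, limma). The day block gave -0.17 and -0.49. Its relative Txnl4a, a core spliceosome protein, had 292.3 to 472.1 in untreated testis and 294.4 to 373.6 on the cadmium arrays.

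Txndc5, a disulfide isomerase of the endoplasmic reticulum, had 190.9, 212.3 and 112.9 in untreated testis, 145.2 and 116.3 at 8 h, and 128.7 and 84.0 at 20 h. Untreated replicate 3 lay among the cadmium arrays, and the 20 h change of -0.61 was the lowest of the 51 member genes, and it did not pass. Txndc16, another reticulum protein, had 122.4, 77.0 and 100.8 in untreated testis, 97.0 and 64.7 at 8 h, and 73.3 and 76.8 at 20 h, the 20 h arrays lying just below the lowest untreated one (-0.33 ± 0.27). Txndc11 had 45.9, 61.8 and 61.8 in untreated testis, 63.9 and 84.0 at 8 h, and 48.3 and 86.2 at 20 h. Its 8 h arrays were both above the untreated ones, by a change of 0.31 ± 0.30, and of its 20 h arrays 1 lay within the untreated range and 1 above it. Txndc17, a cytosolic disulfide reductase, differed least of all tested members between the untreated arrays, with 215.5, 212 and 215.3. On the cadmium arrays it ran from 193.9 to 249.8. Txndc9 had 99.3 and 100.4 at 8 h and 66.1 and 81.2 at 20 h, the latter pair within or below the untreated range of 69.1 to 113.2.

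Glutaredoxins reduce disulfides with glutathione or handle iron-sulfur clusters, and 3 genes were tested. Glrx2 had 4437.1, 4712.7 and 5142.7 in untreated testis, 5591 and 5476.9 at 8 h, and 4553.2 and 5763.1 at 20 h. As with Gpx4, the 4 day 3 arrays were the highest. Glrx3 ran from 5398.3 to 5555 on days 1 and 2 and from 6372.9 to 6859 on day 3. Glrx5, a mitochondrial form, had 457.2 to 601.5 in untreated testis and 431 to 543 on the cadmium arrays.

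Glutathione synthesis and recycling were represented by Gss and Gsr. Gss, the second enzyme of glutathione synthesis, had 102.3, 144.5 and 108 in untreated testis, 124.5 and 132.2 at 8 h, and 120.1 and 168.8 at 20 h, with overlapping groups and a change of 0.26 ± 0.23 at 20 h. Gsr had 17.4, 55.3 and 9.8 in untreated testis, 13.0 and 36.4 at 8 h, and 44.3 and 16.1 at 20 h. It had the largest spread between untreated arrays of the tested members, an SD of 0.78 on the log2 scale, at signals close to the filter.

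Glutathione transferases were the largest family, with 17 genes tested. Their median change was 0.16 at 8 h, with 12 of 17 higher, and -0.05 at 20 h, with 6 of 17 higher, and with the day as a block 0.07 and 0.03. Gstp1, the pi-class transferase, had 673, 647.4 and 572.8 in untreated testis, 779.5 and 722.6 at 8 h, and 863.2 and 753.7 at 20 h. All 4 cadmium arrays were above the 3 untreated ones. The change was 0.25 ± 0.15 at 8 h and 0.35 ± 0.15 at 20 h (adjusted p = 0.836 and adjusted p = 0.999, limma). It was 0.37 at both times with the day as a block. Leaving out single arrays could not turn its sign, because the cadmium and untreated arrays did not overlap. Over the alternative settings the change stayed above 0, from 0.18 to 0.37 at 8 h and from 0.25 to 0.45 at 20 h, and the lowest adjusted p in any of them was 0.52.

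Gstp1 is shown with the region around its transcription start, because its arrays separated cadmium from untreated testis. The antioxidant response element is the sequence that the transcription factor Nrf2 binds, and it was searched for in all member promoters. The motifs and the promoters printed were chosen with the values in view. The region spans 250 bases before and 50 after the start and comes from RefSeq on GRCr8 (chr1:210769656-210769955, minus strand, written 5′ to 3′). Capitals mark the core of that element (TGACNNNGC) and a GC box (GGGCGG), each searched on both strands.
Gstp1: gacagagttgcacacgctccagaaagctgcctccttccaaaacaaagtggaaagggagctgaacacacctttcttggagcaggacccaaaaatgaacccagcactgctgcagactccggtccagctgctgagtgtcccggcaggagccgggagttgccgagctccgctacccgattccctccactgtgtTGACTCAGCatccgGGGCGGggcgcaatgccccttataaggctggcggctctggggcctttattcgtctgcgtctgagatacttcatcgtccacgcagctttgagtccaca
The element's first base lies at -61 and that of the GC box at -47 from the start. Over the 49 of 56 member genes with such a promoter in the table, 15 held the core, a share of 30.6%, against 14.8% of 9625 genes with a tested probe set and 12.1% of all 33469 promoters. These members include genes without a tested probe set, Gpx2 and Gsta3 among those holding the core. A GC box was found in 63.3% of the members and 61.5% of the tested genes. Such a match is one of letters only. The members holding it included Sod2, Gsta1, Prdx4, Gstm5 and Txnl4b, whose core lies at 38, and Txnrd3 held none. A looser form of the metal response element core, TGCNCNC, was found in 61.2% of the members and 60.9% of the tested genes.

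The promoter of Gstm5, a mu-class transferase, holds that core at -113 and -53, the latter overlapping a GC box read on the other strand by 4 bases (chr2:198219519-198219818, plus strand), and is printed to set it beside the array values.
Gstm5: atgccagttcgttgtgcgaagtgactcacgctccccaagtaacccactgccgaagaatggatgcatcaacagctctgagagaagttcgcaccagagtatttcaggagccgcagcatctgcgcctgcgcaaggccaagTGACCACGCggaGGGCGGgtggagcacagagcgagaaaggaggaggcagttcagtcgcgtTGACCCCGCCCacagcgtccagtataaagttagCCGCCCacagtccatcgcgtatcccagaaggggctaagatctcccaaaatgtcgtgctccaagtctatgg
Gstm5 had signals of 13335.3, 11496.1 and 16467.1 in untreated testis, 17717 and 17136.3 at 8 h, and 13049.2 and 18567.8 at 20 h. Its 8 h arrays were above the untreated ones, with a change of 0.36 ± 0.19, but untreated replicate 3 and 20 h replicate 2 of the same day were high as well. With the day as a block the change was 0.03.

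Alpha- and mu-class transferases conjugate many electrophiles. Gsta1 had 4308.5, 3892.8 and 4544.6 in untreated testis, 4877.2 and 5011.8 at 8 h, and 3446.9 and 5389 at 20 h. The 8 h arrays were higher than the untreated ones by 0.22 ± 0.18, which turned to -0.02 with the day as a block. Gstm1 had 2460.5, 2261 and 1868.8 in untreated testis, 2597.8 and 2279.5 at 8 h, and 1582.5 and 2237 at 20 h. Gstm2 had 3255.1, 2825.7 and 3298.7 in untreated testis, 2974.6 and 3138 at 8 h, and 2062.3 and 2959.7 at 20 h, a change of -0.33 ± 0.17, and -0.41 under the day block (adjusted p = 0.821, limma). For both, 20 h replicate 1 was the lowest array and 20 h replicate 2 lay inside the untreated range. Gstm3 and Gstm4 were dim, with 30.9 to 72.7 and 30.6 to 70 in untreated testis, where untreated replicate 2 was the highest of all arrays for each.

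Among the other classes, Gsto2, an omega-class enzyme that also reduces dehydroascorbate, was nearly constant, with 4358.5, 4415.9 and 4490.3 in untreated testis and 4451.6 and 4376.8 at 20 h. Its 8 h arrays were lower, at 3973.6 and 4257.2, by a change of -0.10 ± 0.12 that turned to 0.0036 under scaling to one 75th percentile. Gstz1, the zeta-class enzyme of tyrosine breakdown, had 93.7, 54.4 and 57.1 in untreated testis, 81.9 and 79.4 at 8 h, and 49.0 and 65.8 at 20 h. Its 20 h arrays were below its 8 h arrays by 0.41 ± 0.32, and of these 4 arrays only 20 h replicate 1 lay outside the untreated range.

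Across all families, in a count made after the values were seen, 3 of 55 member probe sets were higher on all 4 cadmium arrays than on the 3 untreated arrays, where 1.82% of all probe sets were. They were those of Gstp1 and Txnrd3 and the dim one of Gpx4. A further 1 of 55, Txnl4b, was lower on all 4, against 4.9% of all probe sets. Txnrd3 had 4123.5, 3999.7 and 4589.6 in untreated testis, 4860.7 and 5141.5 at 8 h, and 4753.1 and 5570.5 at 20 h. The change was 0.24 ± 0.13 at 8 h and 0.28 ± 0.13 at 20 h, and with the day as a block 0.10 and 0.24. Here too the change could not turn sign when single arrays were left out, as cadmium and untreated arrays did not overlap. Over the alternatives it stayed above 0, with a lowest value of 0.04 at 8 h and 0.17 at 20 h and a lowest adjusted p of 0.28 (limma). The 8 h and 20 h comparisons share the untreated arrays, so they are not independent. The 4 spermatocyte markers found of 6 had a median log2 deviation of -0.18 to 0.18 on the untreated arrays and 0.23 to 0.32 on the cadmium arrays. Their summed signal was 16860 to 20687 in untreated testis, 23355 and 23650 at 8 h, and 19538 and 24175 at 20 h. Of these markers Smc1b, a meiotic cohesin subunit, was the one above the untreated range on all 4 cadmium arrays, with 1654.7, 1827.2 and 1193.6 in untreated testis, 2083.5 and 2432.6 at 8 h, and 1945.6 and 2135.8 at 20 h. The part of these markers in the Txnrd3 values was not tested.

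**Figure D2:**
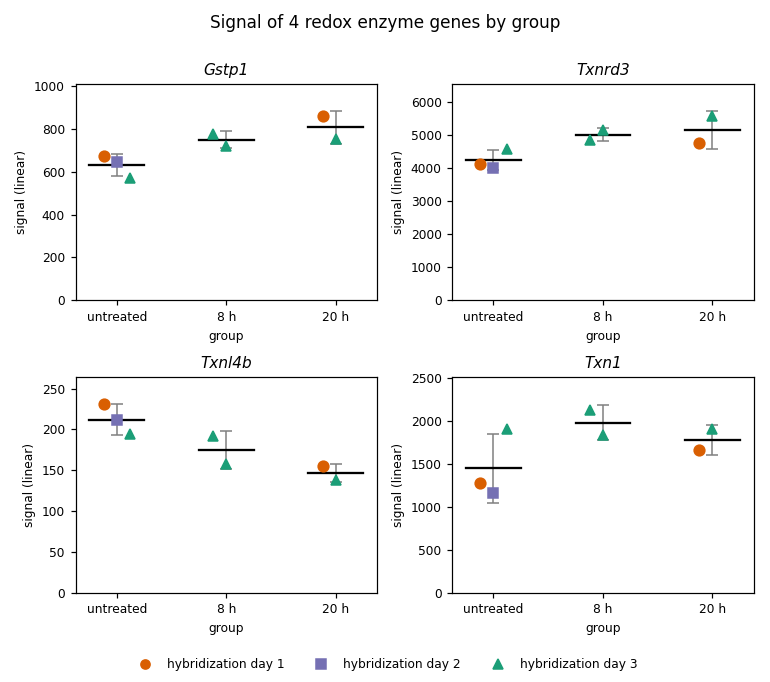
Linear signal of Gstp1, Txnrd3, Txnl4b and Txn1 in untreated testis and at 8 h and 20 h; each point is 1 array with its hybridization day by shape and colour, black lines are group means and grey bars ± 1 SD. Gstp1 and Txnrd3 lie higher, and Txnl4b lower, on all 4 cadmium arrays than on the 3 untreated ones, while for Txn1 the untreated array of day 3 (1903.3) lies among the cadmium arrays.

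Counted per time, 9 of 55 member probe sets had both 8 h arrays above the untreated range, with a background of 7.59%, and 3 of 55 had both below it, with 15.4%. At 20 h it was 5 of 55 above, with a background of 4.65%, and 5 of 55 below, with 10.7%. Between the times, 15 of 55 had both 20 h arrays below both 8 h arrays, where 13.2% of all probe sets did, and 3 of 55 had them above, with 15.2%. In all, 12 of 55 had a higher mean at 20 h than at 8 h, with a background of 52.6%, and 22 of 55 under the day block, with 46.6%.

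Hybridization day was the one variable for which members passed a test, at a share near that of all probe sets. In a fit with group and day, added after the values were seen, 6 of 55 member probe sets differed between day 3 and day 1 at an adjusted p under 0.05 (limma). This was 10.9% of them, and 9.52% of all probe sets did. Day 1 rests on untreated replicate 1 and 20 h replicate 1 alone, so day and animal cannot be told apart. Of the members 5 of 55 were higher on day 3, with a background of 4.08%, and 1 of 55 lower, with 5.43%. At an unadjusted p under 0.05 it was 20 of 55, with 26.9%. Higher on day 3 were Gpx4 (0.45, adjusted p = 0.0033), Gstm5 (0.41, adjusted p = 0.0074), Txndc12 (0.63, adjusted p = 0.022), Glrx3 (0.27, adjusted p = 0.047) and Glrx2 (0.28, adjusted p = 0.0496). Txndc12, a thioredoxin-like protein of the endoplasmic reticulum, had 980.5 and 987 in untreated replicates 1 and 2, 1522.1 in untreated replicate 3, 1033.5 and 1329.2 at 8 h, and 907.6 and 1409.5 at 20 h. Of its day 3 arrays, 8 h replicate 1 lay close to those of days 1 and 2. The dim probe set of Gstt2 was lower on day 3, by 1.20. In all, 40 of 55 members were higher on day 3 than on day 1, where 40.8% of all probe sets were. The median signal over all probe sets was lower on the day 3 arrays (52.8 to 57.0) than on those of day 1 (71.9 and 63.1). So was the 75th percentile, at 215.3 to 219.7 against 250.3 and 236.1. Its part in the day result was not tested. Summed spermatid markers were high on the 4 day 3 arrays, though Acrv1 of that list did not follow, and their part in the result was not tested.

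**Figure D3:**
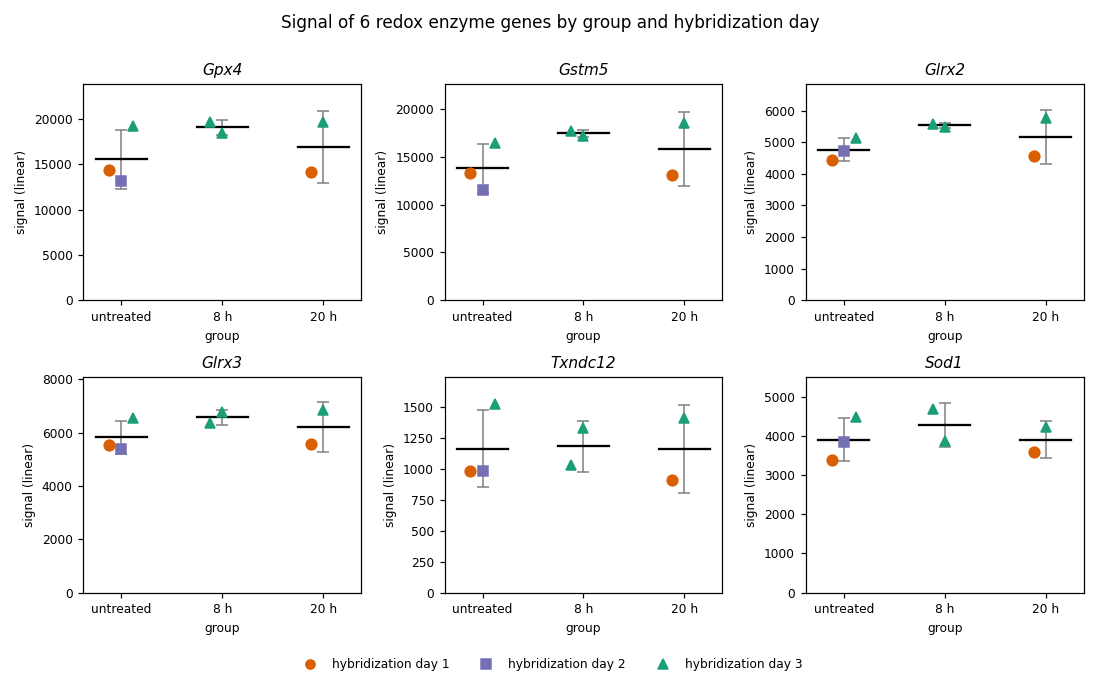
Linear signal of Gpx4, Gstm5, Glrx2, Glrx3, Txndc12 and Sod1 by group; each point is 1 array with its hybridization day by shape and colour, black lines are group means and grey bars ± 1 SD. In Gpx4 the day 3 arrays lie at 18486.9 or above in every group and the others at 14316.2 or below.

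One 20 h array carried much of what was seen at that time. On 20 h replicate 1, 18 of 55 member probe sets had the lowest signal of the 7 arrays, against 15.6% of all probe sets, and 4 of 55 the highest, against 14.9%. On 20 h replicate 2 the lowest were 5 of 55, against 16.1%, and the highest 12 of 55, against 9.17%. The lowest on 20 h replicate 1 included Cat at 0.625 times the median of the other 6 arrays, Prdx3 at 0.660, Gstm2 at 0.675 and Gstm1 at 0.697, and the highest Sod2 at 1.53 and Gstp1 at 1.24. Against untreated replicate 1, of the same day, the log2 differences of this array were -0.63 for Prdx3, -0.65 for Gstm2, -0.63 for Gstm1, 0.59 for Sod2 and 0.35 for Gstp1. On 20 h replicate 2 the differences from untreated replicate 3 were 0.11, -0.16, 0.26, 0.05 and 0.39, so the sign was the same on both days for Gstm2, Sod2 and Gstp1 and opposite for Prdx3 and Gstm1. Of these genes only Cat was named whatever its values. Gstp1 came from the rule on the largest changes, which uses the values. The others were picked with their values known. The same array had the lowest summed Leydig and endothelial markers given above, and their part in these values was not tested.

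**Figure D4:**
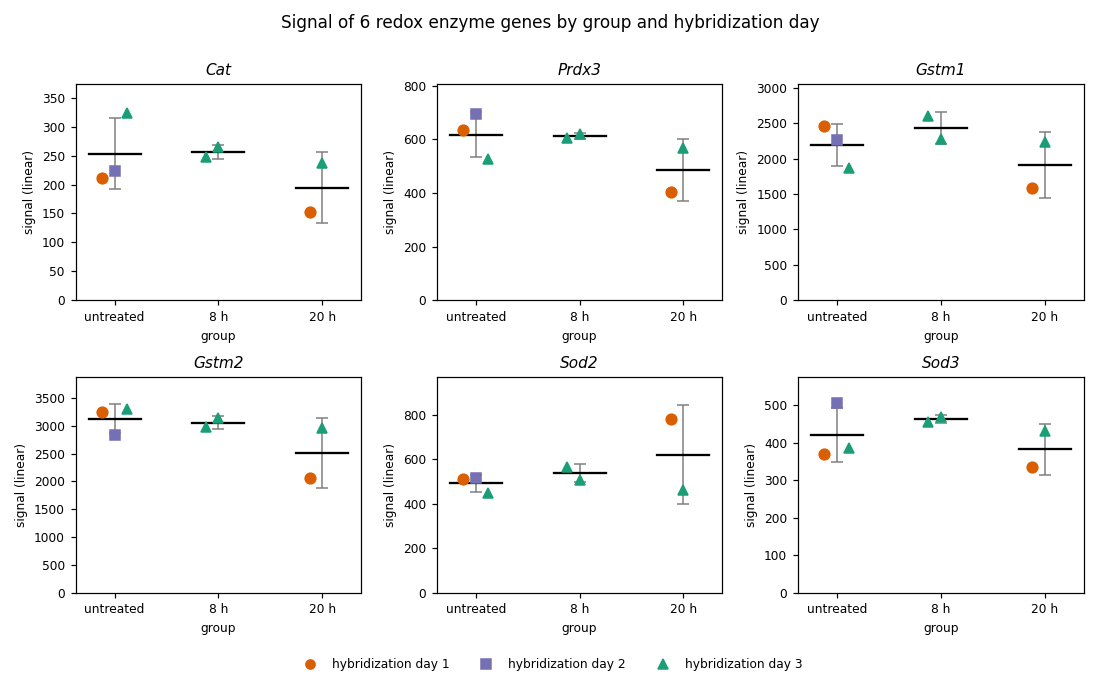
Linear signal of Cat, Prdx3, Gstm1, Gstm2, Sod2 and Sod3 by group; each point is 1 array with its hybridization day by shape and colour, black lines are group means and grey bars ± 1 SD. The day 1 array at 20 h is the lowest of the 7 in Cat (151.8), Prdx3, Gstm1, Gstm2 and Sod3, and the highest in Sod2 (777.8).

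Different probe sets of a gene did not always show the same. Gstt2, a theta-class transferase, had a brighter probe set with 272.6, 334.5 and 183.5 in untreated testis, 224.1 and 268.7 at 8 h, and 189.6 and 295.3 at 20 h, and a dimmer one with 147.1, 97.2 and 48.5, then 40.8 and 37.1, then 88.8 and 35.5. Their 8 h changes were -0.06 and -0.96. The dimmer one was low on every day 3 array. The dim Gpx4 probe set had 36.0, 25.7 and 7.2 in untreated testis, 45.9 and 40.8 at 8 h, and 56.5 and 44.3 at 20 h, so all 4 cadmium arrays were above the untreated ones, by 0.70 ± 0.41 at 8 h and 0.86 ± 0.41 at 20 h. It lay near the filter, and the bright probe set of the same gene did not separate the groups. The dim Glrx2 probe set had 45.3, 54.7 and 60.1 in untreated testis and at least 70.6 at 20 h, a change of 0.54, where the bright one had 0.11.

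Other genes of the pathway, from lists of glutathione and NADPH supply (27 of 30 tested) and of further redox enzymes and their regulators (34 of 39 tested), gave 0 that passed in any comparison (limma). The first list had a median change of 0.07 at 8 h and -0.04 at 20 h, with 16 and 12 of 27 higher, and 2 and 0 at an unadjusted p under 0.05, where the backgrounds were 5.22% and 3.11%. The second had 0.02 and -0.02, with 18 and 15 of 34 higher, and 0 at either time. The largest 20 h change of each list was named after the values were seen. In the second it was Hmox1 (0.86 ± 0.68), with 358.5, 396 and 234.6 in untreated testis and 1604.7 and 217.2 at 20 h. In the first it was Slc7a11 (0.52 ± 0.60), with 194.8, 322.8 and 240.1, then 748.6 and 170.1. At 8 h Hmox1 had 613.5 and 250.2, and Slc7a11 671.4 and 190.5. Both were thus high on replicate 1 only at each time. At 8 h the lowest p in the first list belonged to Ggt1, which breaks down extracellular glutathione (-0.56 ± 0.21), and Esd, an esterase that frees glutathione from formylglutathione (0.84 ± 0.33). Ggt1 had 122.1, 112 and 105.9 in untreated testis and 67.7 and 76.5 at 8 h, and Esd 225.5, 189.6 and 182.5 against 562.6 and 239.1. Ggt1 was low on both 8 h arrays, whereas for Esd the 8 h arrays differed from each other, 8 h replicate 1 being the highest of all 7.

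In the second list Nqo2, a quinone reductase, had 127.6, 25 and 86.6 in untreated testis and 170.3 and 160.8 at 8 h (1.11 ± 0.52), and Srxn1, which restores overoxidized peroxiredoxins, had 207.4, 203.2 and 131.9 against 125.1 and 113 (-0.52 ± 0.25). Neither passed, and with the day as a block they were 0.41 and -0.15. At 20 h Nfe2l2, the gene of Nrf2 itself, had 714.7, 740 and 798.5 in untreated testis and 959.7 and 859.7 after cadmium (0.27 ± 0.14, and 0.26 with the day as a block). Mafg, a small Maf protein that pairs with Nrf2, had 172.4, 191.7 and 130.6 against 116.9 and 110.1 (-0.47 ± 0.22). For both genes the 20 h arrays lay outside the untreated range. Nnt, which makes mitochondrial NADPH, had a 20 h change of -0.32 ± 0.15, and Glrx, the cytosolic glutaredoxin, one of -0.59 ± 0.29. Of 3 measured members known from spermatids and sperm, Gpx4, Prdx4 and Txnrd3, 0 passed. Their 8 h means all exceeded those of untreated testis, by a median of 0.24 that turned to -0.02 under the day block.

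Untreated arrays differed from each other in these genes about as they did in others. Each was hybridized on another day, and untreated replicate 2 was stained differently. Animal, day and staining therefore cannot be told apart in this spread. The median SD of log2 signal over the 3 untreated arrays was 0.22 for the 51 member genes and 0.25 for all tested probe sets. The largest were those of Gsr, Gstm4, Gstm3 and Txndc5, and the smallest those of Txndc17, Gsto2, Prdx2 and Txnrd3.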

How the data were processed

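The authors deposited 1 signal intensity for each probe set; the series' design text names MAS 5.0 and GeneSpring 7.2, and the submitters' processing notes name MAS5; genome build and annotation are not given in the sources used here. Leaving out 2% of rows at either end, the mean was 250.1 on each array. Instrument files, which hold other information (settings) per the file headers, gave the hybridization day; that of untreated replicate 2 names mouse as sample type, and it was stained at 25 °C for 600 s against 35 °C for 300 s. Its array type is that of the others, and it was kept.

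Probe sets were named from the platform's annotation; the symbols of all 62 member probe sets stand unchanged in RefSeq. Of 31099 rows, 57 controls were left out. One fit in limma 3.58.1 (R 4.3.3) held all 3 groups (lmFit, eBayes with an intensity trend) on log2(signal + 15), with Benjamini-Hochberg adjustment over 20857 probe sets; the fit was tested on simulated data. Where a gene had several tested probe sets, the brightest stood for it.

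The number of arrays limits the precision. Promoters are RefSeq's on GRCr8. Members, lists and tests were chosen with earlier results of these data known. Genes were named by a rule (7 fixed genes, the largest changes with arrays outside the untreated range, the largest and smallest untreated spread, the widest range, disagreeing probe sets, and the lowest p per list) or, where said, chosen afterwards. Further members, such as Gpx1, Prdx5 and Txn2, were described outside this rule. The reported fit pairs no arrays by replicate number; a replicate block was among the alternatives.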

Additional observations from a re-analysis of the deposited data

How the results depend on the processing

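The number of member probe sets that passed stayed at 0 in every comparison and setting. Over all probe sets 0 passed except without 8 h replicate 2 (1 at 8 h, 1 between the times and 1 in the F test) and without 20 h replicate 2 (8 at 20 h and 1 between the times), so leaving out single arrays gave 0 to 1, 0 to 8, 0 to 1 and 0 to 1. The median of member genes at 8 h was 0.15 under scaling to one 75th percentile, 0.12 with the filter at the 60th percentile, 0.0921 with the replicate block, and 0.0329 to 0.113 without single arrays. At 20 h it was 0.0352 under that scaling and -0.16 (without 20 h replicate 2) to 0.0686 (without 20 h replicate 1). Between the times the day block gave -0.0281, and single arrays left out -0.28 to -0.0252. The labels do not say whether arrays with the same replicate number belong together. Differences between replicates 1 and 2 correlated at -0.0014, 0.094 and 0.14 between groups. The replicate block gave 0 calls, but it takes all weight from untreated replicate 3, so it does not decide this. Directions turned for Gsta1 at 8 h with the day block (-0.0203), Gsto2 at 8 h under 75th percentile scaling (0.0036), Gpx4 at 8 h under quantile normalization (-0.0379) and the day block (-0.0222), Gpx4 at 20 h under quantile normalization (-0.0037) and without 20 h replicate 2 (-0.12, the range being -0.12 to 0.36), Sod1 at 8 h under quantile normalization (-0.0438) and the day block (-0.0317), and Sod2 at 20 h without 20 h replicate 1 (-0.0824, the range being -0.0824 to 0.652). The cause was not tested. Of the 42 member probe sets present in all 16 alternative settings, 15 kept their sign throughout at 8 h and 14 at 20 h. Of the 13 that the filter at the 60th percentile removed, 6 and 6 did under the other 15. These settings are not separate checks. Some cannot change the estimate, such as the fit without an intensity trend or without an array of the other cadmium time. With 2 cadmium arrays per time and a day that overlaps the groups in part, changes of the size seen here could not be told from the spread between arrays of a group.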
